A study of Mus musculus with 18 samples.

Results

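Livers of mouse offspring whose dams ate a high protein (HP) diet in pregnancy alone were set against livers of offspring whose dams ate the same diet in lactation alone, at postnatal day 21, the age around weaning. The comparison rests on 6 arrays chosen by their titles, 3 of HP pregnancy and 3 of HP lactation, out of 18 arrays in the series, and no control array enters the difference. All animals were of the outbred line DUK, bred from 4 outbred and 4 inbred lines. HP pregnancy dams received 40% protein by weight until birth and 20% afterwards, HP lactation dams received 20% and then 40%, and control dams received 20% throughout, with diets of equal energy. The HP pregnancy, HP lactation and control groups of day 150, with 3 arrays each, and the 3 control arrays of day 21 were used only for the age and day comparisons given further on. Each array carried labelled RNA of pooled livers, and the labels give 3, 4, or 4 to 5 animals in different places, so some animals may have entered more than 1 pool of their group. A p-value here measures differences against the variation from pool to pool, which may be smaller than that from animal to animal or dam to dam. The labels do not give sex or the hour at which livers were taken.

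The liver of a mouse changes its transcripts steeply between weaning and adulthood. Pituitary growth hormone, released in pulses in males and more evenly in females, acts through the receptor GHR and the transcription factor STAT5b, and sets many of the genes that differ between male and female adult livers. Glucocorticoids, feeding and the circadian clock, in which Per and Cry proteins repress CLOCK and BMAL1, add strong daily rhythms to the same organ.

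The tissue label was checked against hepatocyte markers, and all 10 that were tested had signals of at least 6713 on the 6 arrays. The summed signal of these 10 genes was 199320 to 238700 in HP pregnancy and 201230 to 256450 in HP lactation livers. Xist, the RNA of the inactive X chromosome, stayed at or below 85 on every probe set of the 6 arrays, whereas the Y-linked gene Eif2s3y had 2149 to 2894 on its brighter probe set. The control array of replicate 2 at day 21 had an Xist signal of 7343. The HP lactation array of replicate 4 at day 150 had 11644. The main counts that use these arrays are therefore given with and without them. Correlations of log2 signal were 0.978 to 0.987 among HP pregnancy arrays, 0.967 to 0.975 among HP lactation arrays and 0.960 to 0.977 between the groups. On the first principal component of the 9 arrays of day 21, which held 25.4% of the variance, HP pregnancy arrays lay at -17.1 to -9.08, HP lactation arrays at 6.36, 17.5 and 40.1, and control arrays at -14.6 to 0.73. The HP lactation pools were thus the more spread, and replicate 1 stood farthest out.

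Several genes that characterise the male adult liver were higher after HP pregnancy. Estrogen sulfotransferase, a fetal-type cytochrome P450, the clock repressors Per1 and Per2, Abcc4 and Ifrd1 were lower. Among lower genes only Abcc4 and Ifrd1 passed with each of the 6 arrays left out in turn. Of 11018 genes tested in limma, 141 (1.28%) passed a Benjamini-Hochberg adjusted p of 0.05. Of these, 99 (0.899%) were higher after HP pregnancy and 42 (0.381%) were lower, and 59 differed by more than 2-fold, 40 upward and 19 downward. The median difference over all genes was 0.01 on the log2 scale, and 51.8% of the differences were positive. All 141 genes had 3 arrays of one group beyond the 3 of the other, a pattern that 20.9% of all genes tested had in either order, 12.2% with HP pregnancy higher and 8.70% with HP pregnancy lower. At an unadjusted p under 0.05 stood 1646 genes, where 550.9 would be expected by chance. The counts of each list below are to be read beside these shares over all genes.

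The count depended on single pools. It was 67 without HP pregnancy replicate 1, 33 without replicate 2 and 33 without replicate 3 of that group, 33 without HP lactation replicate 1 and 361 without HP lactation replicate 3. With the 3'/5' ratio of the Gapdh control probes as a covariate it was 74, the ratio being 0.844 to 0.984 on HP pregnancy and 0.821 to 0.873 on HP lactation arrays. Whichever of the 6 arrays was left out, 23 genes passed, 21 of them higher and 2 lower after HP pregnancy. Many of the other genes described below passed in some of these fits only, as is said for several of them.

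Hsd3b5, a male-enriched ketosteroid reductase of the mouse liver, gave the largest upward difference. Its signal was 1135, 2349 and 1987 on the 3 HP pregnancy arrays, against 73.8, 275 and 154.7 on the 3 HP lactation arrays. No array of one group reached the other, and control arrays, at 578.6, 274.6 and 771.4, lay below every HP pregnancy array. The difference, always given as HP pregnancy minus HP lactation on the log2 scale, was 3.57 (SE 0.42, limma adjusted p = 0.00024), or 11.9-fold.

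Mup3, a major urinary protein that carries pheromones, had signals of 23654, 21185 and 25360 after HP pregnancy, against 1309, 3744 and 3913 after HP lactation. The control arrays, at 24295, 17111 and 25716, overlapped the HP pregnancy arrays and stood far above all 3 HP lactation arrays. The difference was 3.12 (SE 0.29, limma adjusted p = 2.9e-05), 8.72-fold. The probe set of Mup3 is of a kind whose probes can also bind related transcripts, and Mup genes are nearly identical, so its signal may sum several of them. Mup10, another gene of the family, showed 1946, 2587 and 3205 in HP pregnancy, against 436.6, 1114 and 289.8 in HP lactation livers, a difference of 2.28 (SE 0.36). Mup5, the other tested member of the list of major urinary proteins, read 346.9, 255.1 and 422.9 in HP pregnancy and 365.8, 381.8 and 210.0 in HP lactation livers, which overlapped, and gave 0.12 (SE 0.48, adjusted p = 0.94 in limma).

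Elovl3, an elongase of very long chain fatty acids, read 305, 461.7 and 383.9 after HP pregnancy, against 67, 90.5 and 39 after HP lactation. The HP lactation values lay close to the filter on low signal at 57.5, so the fold of Elovl3 is less precise than its separation. Its difference was 2.61 (SE 0.41, limma adjusted p = 0.0033). Cyp4a12a, a male-enriched fatty acid hydroxylase, read 839.9, 1556 and 1665 in HP pregnancy and 259.3, 527.3 and 150 in HP lactation livers, with a difference of 2.24 (SE 0.31). Slco1a1, an organic anion uptake transporter of the hepatocyte, had high and tight signals of 14428, 15283 and 17014 after HP pregnancy, against 4946, 7496 and 5972 after HP lactation. That separation gave a limma adjusted p of 9.3e-05 at a difference of 1.36 (SE 0.14). Cyp7b1, an oxysterol hydroxylase of bile acid synthesis, read 1731, 1414 and 1455 in HP pregnancy livers and 647.2, 958.1 and 655.5 in HP lactation livers, with a difference of 1.04 (SE 0.16). Hsd3b5, Mup3, Elovl3, Cyp4a12a, Slco1a1 and Cyp7b1 passed in each of the 6 fits that left out 1 array.

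**Figure D1:**
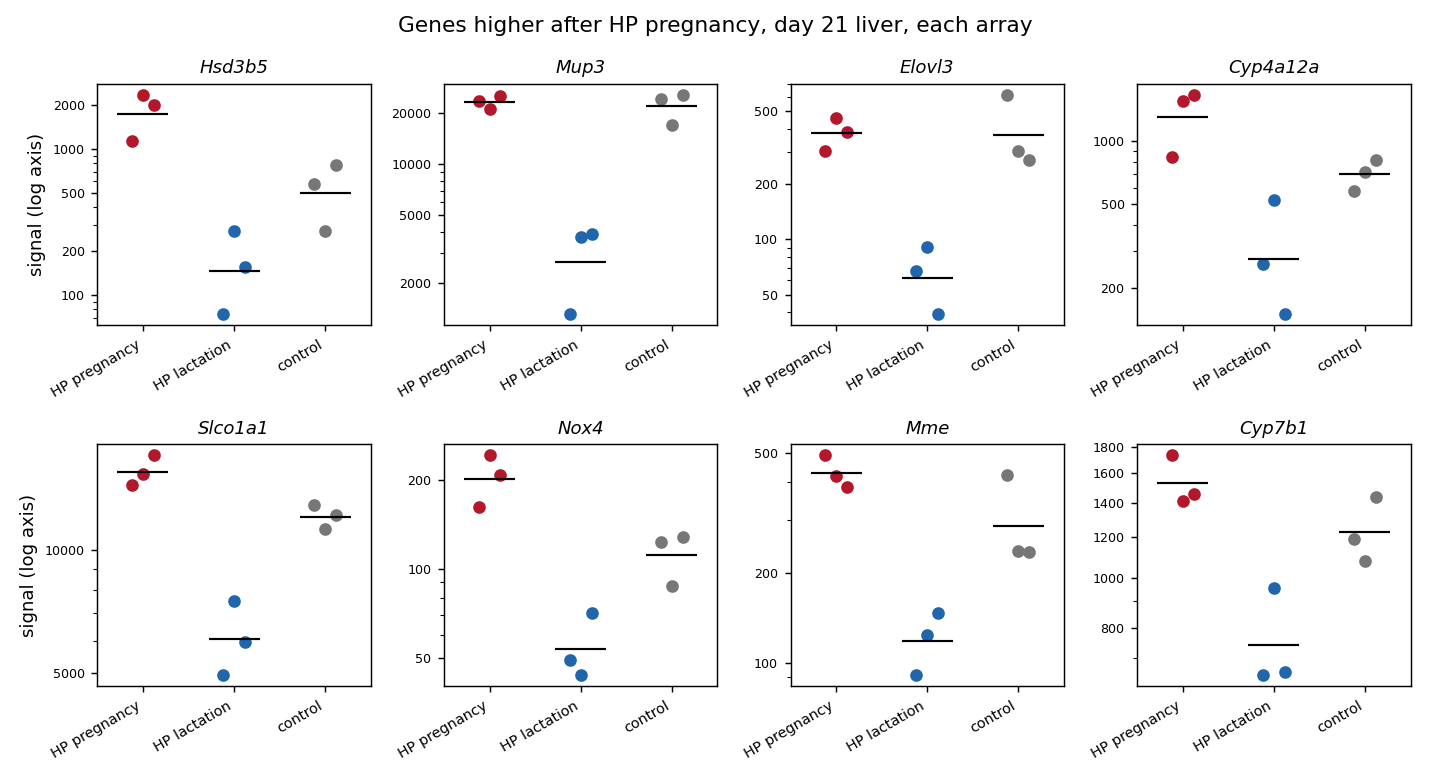
Signal of 8 genes that were higher after HP pregnancy, on a logarithmic axis with its own range for each gene. Points are single arrays of day 21 (3 HP pregnancy, 3 HP lactation, 3 control), and lines are geometric means. No HP lactation point reaches an HP pregnancy point in any panel.

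These 6 genes are all those that passed among the male-biased genes. Of 22 listed, 14 were tested, 6 rose and 0 fell, against 0.899% and 0.381% of all genes. Signs were positive for 11 and negative for 3, with a median of 0.66 beside 0.01 over all genes. Measured against each gene's own mean over the 9 arrays of day 21, the median level of these 14 genes was 0.45, 0.45 and 0.39 on HP pregnancy arrays, -0.61, -0.17 and -0.56 on HP lactation arrays, and 0.21, 0.07 and 0.18 on control arrays. Every HP pregnancy array thus lay above every HP lactation array, with the control arrays between.

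Of 19 tested female-biased genes, 1 fell and 0 rose after HP pregnancy, 16 had negative and 3 positive signs, and the median was -0.98, or -0.62 without HP lactation replicate 2 and -0.60 with the Gapdh ratio as a covariate. The one that fell was Cyp3a16, a cytochrome P450 of fetal, young and female mouse liver. Its signal was 160.4, 206.2 and 105.4 in HP pregnancy livers, against 2296, 1082 and 4648 in HP lactation livers. Control arrays ran widely, at 797.2, 252.3 and 73.3. The difference was -3.90 (SE 0.86, limma adjusted p = 0.030), 14.9-fold lower after HP pregnancy, and it passed in 1 of the 6 fits that left out 1 array. Prom1, a membrane glycoprotein of progenitor cells, gave -1.85 (limma adjusted p = 0.10), and Cyp17a1, a steroid hydroxylase and lyase, gave -2.32 (0.14). Sult3a1, a sulfotransferase of amines, pointed the other way at 2.33 (0.13). Relative to each gene's day 21 mean, the median of the 19 genes was -0.18, -0.35 and -0.53 on HP pregnancy arrays, 0.32, 0.39 and 0.21 on HP lactation arrays, and 0.15, -0.07 and -0.32 on control arrays.

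The genes of growth hormone signalling themselves did not pass. Of 16 tested, limma called 0, and 6 had an unadjusted p under 0.05. Their median was -0.08. For 5 of the 16, all HP pregnancy arrays lay above the HP lactation arrays, and for 1 all lay below, against 12.2% and 8.70% of all genes. Ghr, the growth hormone receptor, had 15804, 14690 and 16922 in HP pregnancy livers, against 7873, 11027 and 12778 in HP lactation livers. Those arrays did not overlap, but the difference of 0.61 (SE 0.15) had an adjusted p of 0.057 in limma. Igfals, which holds IGF-I in the circulation, gave 0.62 (SE 0.17, adjusted p = 0.089 in limma). Igf1 gave 0.34 (SE 0.13, adjusted p = 0.22 in limma), with 12834, 16088 and 16340 against 11331, 12651 and 11540, which did not overlap. In the fit of every kept probe set, the 3 other Igf1 probe sets gave larger differences of 0.54, 0.73 and 0.49. None of them passed (limma adjusted p = 0.16, 0.16 and 0.17). Socs2, a feedback inhibitor of the receptor, varied within both groups and gave -0.59 (SE 0.38).

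Other genes that were higher after HP pregnancy include 1 of oxidant production, 1 of peptide cleavage and 2 of DNA repair. Nox4, an NADPH oxidase that makes hydrogen peroxide, had 161.1, 241.3 and 207.7 in HP pregnancy livers, against 49.1, 43.8 and 71.1 in HP lactation livers. Its difference was 1.91 (SE 0.26, limma adjusted p = 0.00096). The HP lactation values of 49.1 and 43.8 lay under the filter on low signal, and 71.1 lay above it. The fold of Nox4 is therefore less precise than its separation. A second probe set of Nox4 also passed, with mean signals of 61.3 in HP pregnancy and 2.29 in HP lactation livers. The HP lactation mean of that probe set lay far under the filter, so it adds little on the size of the difference. Mme, the membrane peptidase neprilysin, had 491.6, 418.7 and 385.5 after HP pregnancy, against 91, 123.8 and 146.1 after HP lactation, a difference of 1.86 (SE 0.25). Neither gene had overlapping groups. Rad51b, a gene of homologous recombination, had 1245, 1685 and 1212 in HP pregnancy and 266.2, 438.4 and 474.8 in HP lactation livers, with a difference of 1.84 (SE 0.25). Rdm1, which holds a RAD52-like motif, gave 1.03 (SE 0.17). Brca1, by contrast, gave -1.85 (SE 0.44, limma adjusted p = 0.046), with signals of 55.2, 37.8 and 67.4 in HP pregnancy livers that lay near the filter on low signal, against 131.4, 255 and 196.4 in HP lactation livers. It passed in 0 of the 6 fits that left out 1 array, where Rad51b and Rdm1 passed in all 6. The repair list therefore held 2 genes up and 1 down among 8 tested, with 3 positive and 5 negative signs and a median of -0.05.

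The promoters of Nox4 and Mme are shown because both genes passed with every array left out in turn and both hold the STAT motif TTCNNNGAA, the letters bound by the STAT factors downstream of growth hormone. The sequences are from RefSeq on GRCm38.p6, run 5′ to 3′ on the plus strand from 250 bases before to 50 after the gene's start, and span chr7:87246399-87246698 for Nox4 and chr3:63294961-63295260 for Mme. Capitals mark the motif.
Nox4: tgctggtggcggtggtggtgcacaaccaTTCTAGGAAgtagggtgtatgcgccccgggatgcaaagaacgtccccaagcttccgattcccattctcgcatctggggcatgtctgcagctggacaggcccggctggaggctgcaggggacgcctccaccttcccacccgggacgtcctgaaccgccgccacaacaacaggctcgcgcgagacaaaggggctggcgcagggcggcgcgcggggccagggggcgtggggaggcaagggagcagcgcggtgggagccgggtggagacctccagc
Mme: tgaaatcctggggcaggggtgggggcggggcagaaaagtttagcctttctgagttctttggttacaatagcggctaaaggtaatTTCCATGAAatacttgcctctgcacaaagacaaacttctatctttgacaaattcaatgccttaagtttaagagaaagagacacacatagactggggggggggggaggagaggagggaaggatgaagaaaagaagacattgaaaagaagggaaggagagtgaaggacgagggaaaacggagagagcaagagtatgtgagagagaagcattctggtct
The match in Nox4 (TTCTAGGAA) begins 222 bases and that in Mme (TTCCATGAA) 166 bases before the start. Searched on both strands, TTCNNNGAA was in 9.70% of the 134 promoters of the 108 called genes found in the table. Its share over all 32851 promoters there was 8.30%. Among called genes it was in 8.7% of the 92 promoters of higher genes and 11.9% of the 42 of lower genes. Per1, a clock repressor that was lower after HP pregnancy, also holds a match (TTCCACGAA). It lies in the promoter at chr11:69099902-69100201 and begins 210 bases before the start there. These matches describe letters only and show no binding.

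Enzymes that modify foreign compounds and steroids contributed further upward calls. Ces1f, a carboxylesterase, had 9928, 8162 and 11083 in HP pregnancy livers, against 5122, 5151 and 3633 in HP lactation livers, a difference of 1.08 (SE 0.15, limma adjusted p = 0.00096). Ugt3a1, which attaches sugars to steroids and bile acids, gave 1.14 (SE 0.19), and Ugt2b1, a glucuronosyltransferase, gave 0.70 (SE 0.14, limma adjusted p = 0.023). They were the 2 of 30 tested glutathione and glucuronosyl transferases that rose, while 0 fell and 22 had positive signs. The shares over all genes were 0.899%, 0.381% and 51.8%. Cyp4v3, a fatty acid hydroxylase, gave 0.78 (SE 0.12), and Hsd3b2, a steroid dehydrogenase close in sequence to Hsd3b5, gave 0.94 (SE 0.23, limma adjusted p = 0.048). Of 34 tested phase I oxidases 1 rose and 1 fell, against 0.899% and 0.381% of all genes. Their median was 0.04, a value whose sign turned without HP lactation replicate 3 (-0.03).

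Of 34 tested genes of complement and coagulation 4 rose and 0 fell, against 0.899% and 0.381% of all genes. Positive signs were seen in 27, against 51.8% of all genes. The list median was 0.09, or 0.03 without HP lactation replicate 1. C8a and C8b, chains of a component of the membrane attack complex, both gave 0.83 (SE 0.17 and 0.16), and C9, which forms the pore, gave 1.06 (SE 0.24, limma adjusted p = 0.033). C9 read 14870, 14621 and 15038 in HP pregnancy livers, against 4622, 11275 and 6861 in HP lactation livers, so the spread lay in HP lactation. Mbl1, a mannose-binding lectin that starts the cascade, gave 0.69 (SE 0.15, limma adjusted p = 0.030). C8a, C9 and Mbl1 each passed in 2 and C8b in 3 of the 6 fits that left out 1 array. Hspa1b, an inducible heat shock protein, was the 1 of 14 tested heat shock genes that rose, at 1.14 (SE 0.22).

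Sult1e1, estrogen sulfotransferase, gave the largest difference of all, and it was downward. HP pregnancy livers had signals of 211.7, 71.8 and 65.2, while HP lactation livers had 2756, 11154 and 1997. The control arrays read 146.5, 184.2 and 992.9, below every HP lactation array. The difference was -5.31 (SE 0.96, limma adjusted p = 0.010), 39.6-fold lower after HP pregnancy, and it passed in 4 of the 6 fits that left out 1 array. Among the 8 tested sulfotransferases of the list it was the 1 call, and the list median of 0.04 was -0.14 without HP lactation replicate 3. Sult2a8, a sulfotransferase outside that list and named after its values were seen, was higher after HP pregnancy at 0.67 (SE 0.12, limma adjusted p = 0.011).

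Abcc4 and Ifrd1 were the 2 downward genes that passed with every array left out in turn. Abcc4, a pump that exports bile acids and conjugates from hepatocytes, had 179, 164.8 and 166.1 in HP pregnancy livers, against 551.2, 686.4 and 514.8 in HP lactation livers. Control arrays, at 169.4, 264 and 173.9, sat at the HP pregnancy level. Its difference was -1.77 (SE 0.25, limma adjusted p = 0.0015). Ifrd1, a transcriptional coregulator, read 955.2, 843.1 and 937.3 in HP pregnancy, against 3526, 3324 and 2168 in HP lactation livers, with a difference of -1.69 (SE 0.20, limma adjusted p = 0.00024). Among 19 bile acid genes Abcc4 was the 1 that fell, and Slco1a1 and Cyp7b1 were the 2 that rose, against 0.381% and 0.899% of all genes. Slco1a4, another uptake transporter, gave -1.20 (limma adjusted p = 0.051).

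Bex1, a small X-linked protein that is high in fetal tissues, read 432.9, 381.8 and 322.3 after HP pregnancy, against 4477, 2525 and 1802 after HP lactation. Control arrays, at 370.7, 428.1 and 481.3, overlapped the HP pregnancy arrays. The difference was -2.86 (SE 0.50, limma adjusted p = 0.0075). It was the 1 call among 16 tested fetal and imprinted growth genes, of which 11 had negative signs. Their median of -0.24 rested on single pools, being -0.03 without HP lactation replicate 1 and -0.43 without HP lactation replicate 2. Gpc3, a heparan sulfate proteoglycan that restrains growth, gave -1.38 (adjusted p = 0.16 in limma), and Afp, alpha-fetoprotein, gave -0.76 (0.22). Afp was 396.1, 432 and 524.8 in HP pregnancy livers and 478.4, 630.3 and 1439 in HP lactation livers, so its difference lay in 1 pool.

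**Figure D2:**
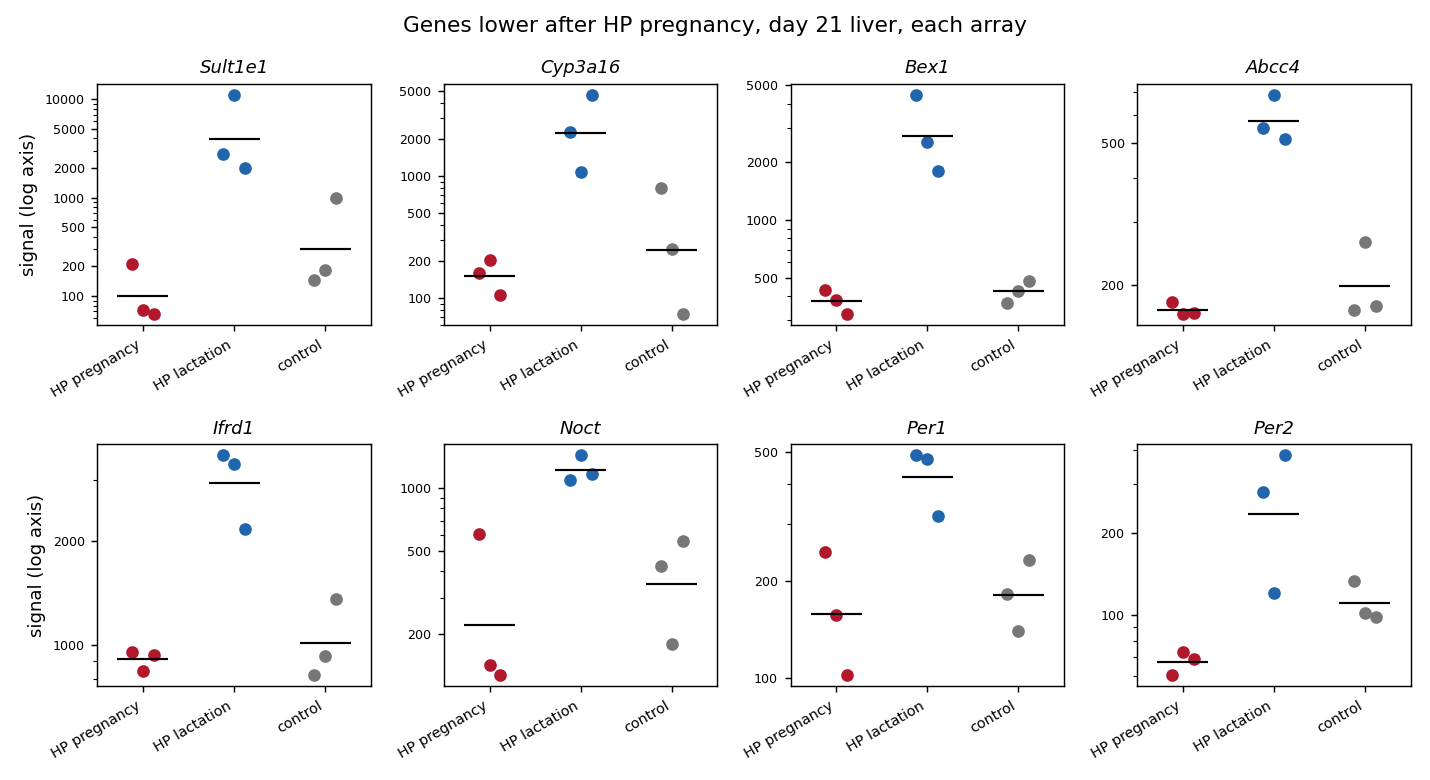
Signal of 8 genes that were lower after HP pregnancy, on a logarithmic axis with its own range for each gene. Points are single arrays of day 21 (3 HP pregnancy, 3 HP lactation, 3 control), and lines are geometric means. Control points of Bex1 lie between 370.7 and 481.3, near the HP pregnancy points.

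The clock repressors Per1 and Per2 were lower after HP pregnancy. Per1 had 245.5, 157 and 102.1 in HP pregnancy livers, against 489.2, 477.3 and 317.6 in HP lactation livers, a difference of -1.41 (SE 0.29, limma adjusted p = 0.025). Per2 had 60.2, 73.2 and 69, against 281, 119.9 and 382.9, a difference of -1.80 (SE 0.40, limma adjusted p = 0.030). Neither gene's groups overlapped. Per2 varied most within HP lactation and Per1 within HP pregnancy, and they passed in 1 and 2 of the 6 fits that left out 1 array. Per1 and Per2 were the 2 calls among 9 tested genes that peak near dusk, all 9 of which had negative signs. Their median was -0.87, or -0.56 without HP lactation replicate 1 and -1.42 over every kept probe set. The repressors Per3, at -1.94 (limma adjusted p = 0.10), Cry2, at -0.87 (0.15), and Cry1, at -0.56 (0.24), did not pass. The median level of all 9 dusk genes, Per1 and Per2 included, relative to the day 21 mean was -0.52, -0.14 and -0.22 on HP pregnancy arrays, 1.10, 0.50 and 0.47 on HP lactation arrays, and -0.52, -0.21 and -0.08 on control arrays. In the opposite phase, Arntl, which encodes BMAL1, gave 0.60 (SE 0.41) and Clock gave 0.46 (SE 0.23), while limma called 0 of 5 tested genes, with 1 at an unadjusted p under 0.05. Signs in this list were mixed, with 3 positive and 2 negative. These values are of the brightest probe set of each gene. In the fit of every kept probe set, 2 of the 3 other Clock probe sets passed, at 1.01 (SE 0.20, limma adjusted p = 0.023) and 0.70 (SE 0.14, limma adjusted p = 0.024), so whether Clock is called depends on the probe set. Since the hour of sampling is not given in the labels, its part in these differences was not tested.

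Noct, a rhythmic phosphatase, and Usp2, a rhythmic deubiquitinase, were lower as well. Noct read 605.6, 143.4 and 127.7 in HP pregnancy livers, against 1097, 1435 and 1165 in HP lactation livers, with a difference of -2.46 (SE 0.50, limma adjusted p = 0.021). Usp2 read 163.9, 91.4 and 107.2, against 696.1, 954.5 and 967.3. Its difference of -2.88 (SE 0.69, limma adjusted p = 0.048) lay just under the threshold and passed in 0 of the 6 fits that left out 1 array. Replicate 1 was the highest HP pregnancy array for Noct, Usp2 and Per1.

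The promoters of Per1 and Noct are given because the motifs read by clock factors can be seen in them. They span chr11:69098699-69098998 for Per1 and chr3:51224197-51224496 for Noct, from RefSeq on GRCm38.p6, plus strand. Capitals mark the E-box CACGTG, bound by CLOCK and BMAL1, and the D-box TTATGNAA or its reverse complement, bound by DBP and related factors.
Per1: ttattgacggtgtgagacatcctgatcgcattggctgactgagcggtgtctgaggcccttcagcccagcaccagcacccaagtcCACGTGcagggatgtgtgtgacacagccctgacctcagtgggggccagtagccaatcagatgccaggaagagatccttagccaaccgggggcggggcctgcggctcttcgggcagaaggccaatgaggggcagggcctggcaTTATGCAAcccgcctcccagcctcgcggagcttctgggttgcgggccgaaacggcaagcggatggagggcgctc
Noct: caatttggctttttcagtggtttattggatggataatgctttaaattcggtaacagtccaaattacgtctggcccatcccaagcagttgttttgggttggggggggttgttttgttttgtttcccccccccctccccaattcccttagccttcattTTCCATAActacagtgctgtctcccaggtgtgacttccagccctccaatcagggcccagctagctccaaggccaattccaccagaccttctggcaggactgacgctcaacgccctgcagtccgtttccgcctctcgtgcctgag
In Per1 the E-box begins 166 and the D-box (TTATGCAA) 24 bases before this start, and in Noct the D-box (TTCCATAA) begins 94 bases before. Searched on both strands, the E-box was in 8.21% of the 134 promoters of called genes against 7.15% of all promoters in the table. For the D-box the shares were 4.48% and 3.38%.

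Glucocorticoid and fasting genes leaned the same way. Of 24 tested, 2 fell and 0 rose, against 0.381% and 0.899% of all genes. Negative signs were seen in 21, where 51.8% of all genes had positive ones. The list median was -0.60, or -0.90 without HP pregnancy replicate 1. The 2 that fell were Sult1e1 and Per1. Tat, tyrosine aminotransferase, had 14847, 6713 and 7569 in HP pregnancy livers, against 26286, 25159 and 13563 in HP lactation livers. The highest HP pregnancy array of Tat passed the lowest HP lactation array, and the difference of -1.19 (SE 0.30) had an adjusted p of 0.055 in limma. Gadd45g, a stress-induced growth arrest gene, gave -1.84 (adjusted p = 0.072 in limma). By array, the list's median level was 0.20, -0.61 and -0.74 in HP pregnancy, 0.63, 0.46 and -0.19 in HP lactation and 0.08, -0.26 and 0.24 in control livers, so the groups overlapped. Immediate early genes, switched on within minutes of a stimulus, had 0 of 17 called by limma and 5 at an unadjusted p under 0.05, with a median of -0.50 that was -0.11 without HP lactation replicate 1. Sik1, a kinase induced by cyclic AMP, fell by 2.15 (SE 0.44, limma adjusted p = 0.023).

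Cyp26a1, which clears retinoic acid, had 78.8, 7.5 and 68.9 in HP pregnancy livers and 510.2, 426.2 and 83.6 in HP lactation livers. One HP pregnancy value lay far under the filter on low signal and 1 HP lactation value lay just above the HP pregnancy range. The difference of -2.93 (SE 0.69, limma adjusted p = 0.042) passed in 2 of the 6 fits that left out 1 array. Adh4, an alcohol dehydrogenase that oxidises retinol, rose by 0.95 (SE 0.19, limma adjusted p = 0.017). They were the 2 calls among 23 tested retinoid genes, against 1.28% of all genes. The median of the retinoid genes was 0.09, or 0.02 without HP lactation replicate 3. Pparg, a receptor that drives fat storage, gave -1.18 (SE 0.25), and Slc25a4, a mitochondrial ADP and ATP exchanger, gave -1.14 (SE 0.25). Ppat, the first enzyme of purine synthesis, gave -0.85 (SE 0.19, limma adjusted p = 0.029) and was the 1 call among 19 genes of nucleotide synthesis.

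Over all 11018 genes tested, 51.8% had positive signs and 1646 had an unadjusted p under 0.05. Cell cycle genes had negative signs in 17 of 18 tested, with a median of -0.91, but limma called 0, and 11 had an unadjusted p under 0.05. Their median level by array was -0.49, -0.14 and -0.29 in HP pregnancy, 0.41, -0.06 and 1.49 in HP lactation, and 0.22, -0.45 and -0.29 in control livers. The high value belonged to HP lactation replicate 3, without which the median difference was -0.44. Mcm5, a subunit of the replicative helicase, shows the same array, with 92.2, 209 and 89.9 in HP pregnancy against 281.5, 171.3 and 1106 in HP lactation livers. Pcna, the sliding clamp of DNA synthesis, gave -0.64 (adjusted p = 0.083 in limma).

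The lists of amino acid, cholesterol, DNA methylation and oxidative phosphorylation genes held no call. Over all 11018 genes tested, 1.28% were called and 1646 had an unadjusted p under 0.05. At that share of calls, lists of this size would hold few or none. Amino acid catabolism had 0 of 39 called by limma (9 at an unadjusted p under 0.05) and a median of 0.06, or -0.01 without HP lactation replicate 3. The urea cycle had 0 of 13 (4 unadjusted), although Ass1 and Asl, its argininosuccinate enzymes, gave -2.00 and -0.85, each with an adjusted p of 0.077 in limma. Amino acid transporters had 0 of 20 (3 unadjusted), 16 with negative signs and a median of -0.26. ATF4 targets, the genes of amino acid shortage, had 0 of 18 (5 unadjusted). Cholesterol synthesis had 18 negative signs of 20 and a median of -0.40, or -0.25 without HP pregnancy replicate 1, with 0 called by limma and 7 at an unadjusted p under 0.05. Lss, lanosterol synthase, gave -0.89 (SE 0.28). The summed signal of these cholesterol genes was 80123, 95104 and 117260 in HP pregnancy livers, against 122110, 116750 and 114620 in HP lactation livers, so the arrays overlapped. Of the genes of DNA methylation, Dnmt1 gave -0.39 (SE 0.19, adjusted p = 0.34 in limma), and limma called 0 of 10, with 1 at an unadjusted p under 0.05. Oxidative phosphorylation had 0 of 67 called (3 unadjusted) and a median of 0.05.

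**Figure D3:**
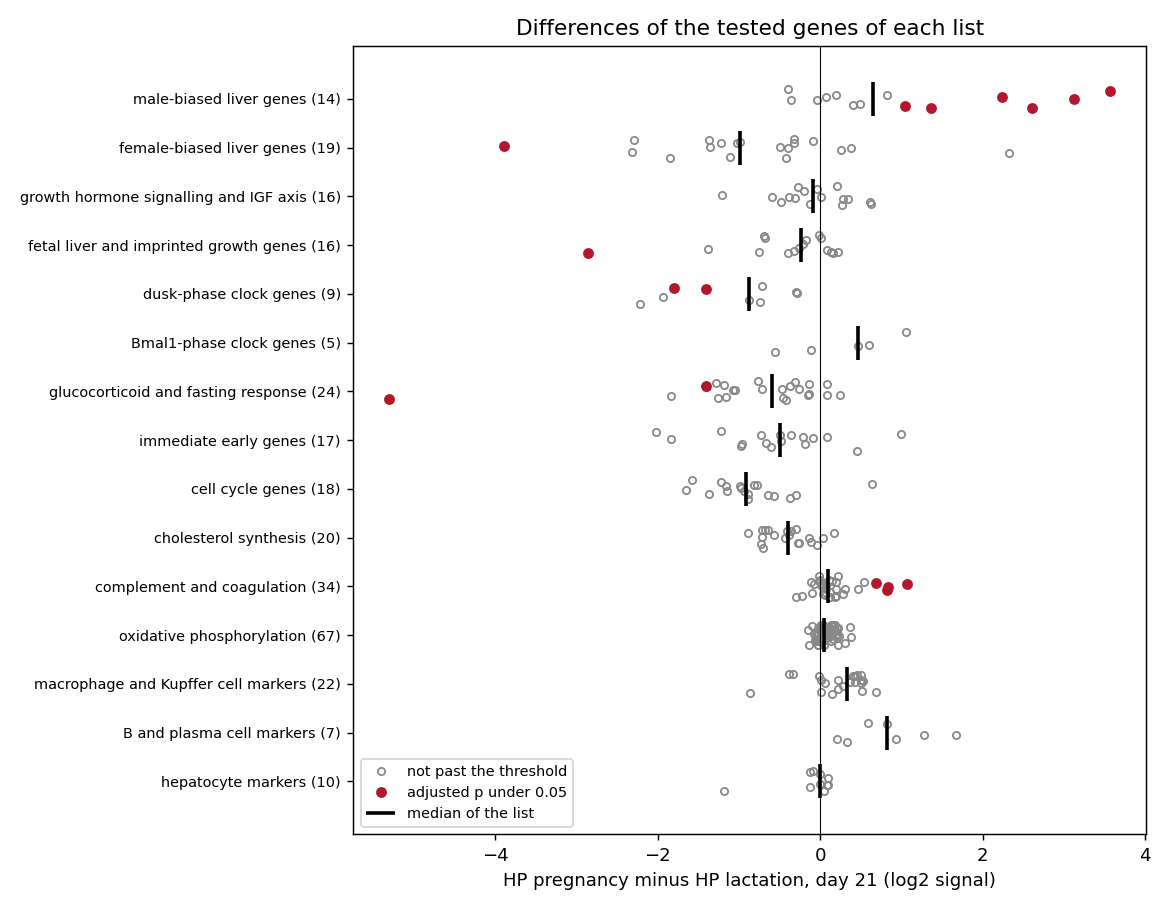
Differences of HP pregnancy minus HP lactation at day 21, on the log2 scale, for the tested genes of 15 lists, with the number of genes in brackets. Each point is a gene, filled where its limma adjusted p was under 0.05, and the bar is the median. The medians range from -0.98 in female-biased genes to 0.82 in B and plasma cell markers.

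Markers of other cells moved with the contrast in part. Macrophage and Kupffer cell markers had positive signs in 18 of 22 (median 0.33), with 0 called by limma and 11 at an unadjusted p under 0.05. Their summed signal was 46547, 47224 and 38635 in HP pregnancy and 31152, 34610 and 38554 in HP lactation livers. These sums did not overlap, but the lowest of HP pregnancy lay just above the highest of HP lactation. No macrophage marker was under 82.7 on the 6 arrays. Lyz2, the lysozyme of these cells, gave 0.52 (adjusted p = 0.089 in limma). B and plasma cell markers had 7 of 7 positive signs (median 0.82, and 0.36 without HP lactation replicate 2), with 0 called and 3 at an unadjusted p under 0.05. Their summed signal was 813.2 to 1073 in HP pregnancy and 489.9 to 712.1 in HP lactation livers. Of the 10 B and plasma cell markers on the array, 3 stayed under 57.5 on all 6 arrays. Tested markers were low too, as Ms4a1 read 46.5, 45.4 and 16.6 and Cd79b 43, 38.9 and 27.1 in HP lactation livers. Mzb1 and Cd74 stayed above 57.5 on these arrays. The brightest Ighm probe set gave 1.28, and its other kept probe sets gave 0.10, 0.68 and -0.35. Whole liver was measured, so fewer cells of a type and less RNA per cell cannot be told apart. The part of these cells in the called differences was not tested. Endothelial, stellate and hepatocyte markers had medians of 0.03, 0.01 and 0.002, each of which turned negative when 1 array was left out (lowest -0.11, -0.16 and -0.09).

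The called genes were then set beside their change with age in control livers, day 150 minus day 21. This comparison shares no array with the one above, but it shares the spread estimate of the fit. The Gapdh 3'/5' ratio averaged 0.94 on control arrays of day 21 and 1.48 on those of day 150. At day 21 it averaged 0.904 in HP pregnancy and 0.843 in HP lactation. Age and this ratio therefore changed together, and the part of the ratio in the age change was not tested. Among all 11018 genes 9.70% rose and 8.08% fell with age at a limma adjusted p of 0.05. Of the 99 genes higher after HP pregnancy, 59 (59.6%) rose with age and 2 (2.02%) fell, and their median age change was 0.67, beside 0.02 over all genes. Of the 42 lower genes, 3 (7.14%) rose and 12 (28.6%) fell, with a median of -0.27. Leaving out the control array with Xist signal gave 50 of 99 rising and 10 of 42 falling, where 6.71% of all genes rose and 5.35% fell. Without control replicate 2 of day 150 the total of 1959 genes that changed with age was 1151, and 50 of 99 rose and 9 of 42 fell. Hsd3b5 rose by 4.34 with age, Elovl3 by 5.45, Cyp4a12a by 4.13, Cyp7b1 by 4.40 and Nox4 by 3.86, while Sult1e1 changed by -4.83, Cyp3a16 by -4.22 and Bex1 by -3.02. The direction was not general, since Rad51b changed by -1.42 with age and Mup3 by -0.40 (adjusted p = 0.38 in limma), and Cyp26a1 and Noct, both lower after HP pregnancy, rose by 2.22 and 2.95. Without the control array with Xist signal these 12 age changes kept their signs, and that of Cyp26a1 no longer passed (2.47, adjusted p = 0.051 in limma). Of the 23 genes that passed with every array left out in turn, 15 of the 21 higher ones rose with age and both lower ones fell. Without the control array with Xist signal, Ifrd1 still fell with age (limma adjusted p = 0.042). Abcc4 no longer passed there, at -0.58 (adjusted p = 0.18 in limma). The count of higher ones was not redone without that array.

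**Figure D4:**
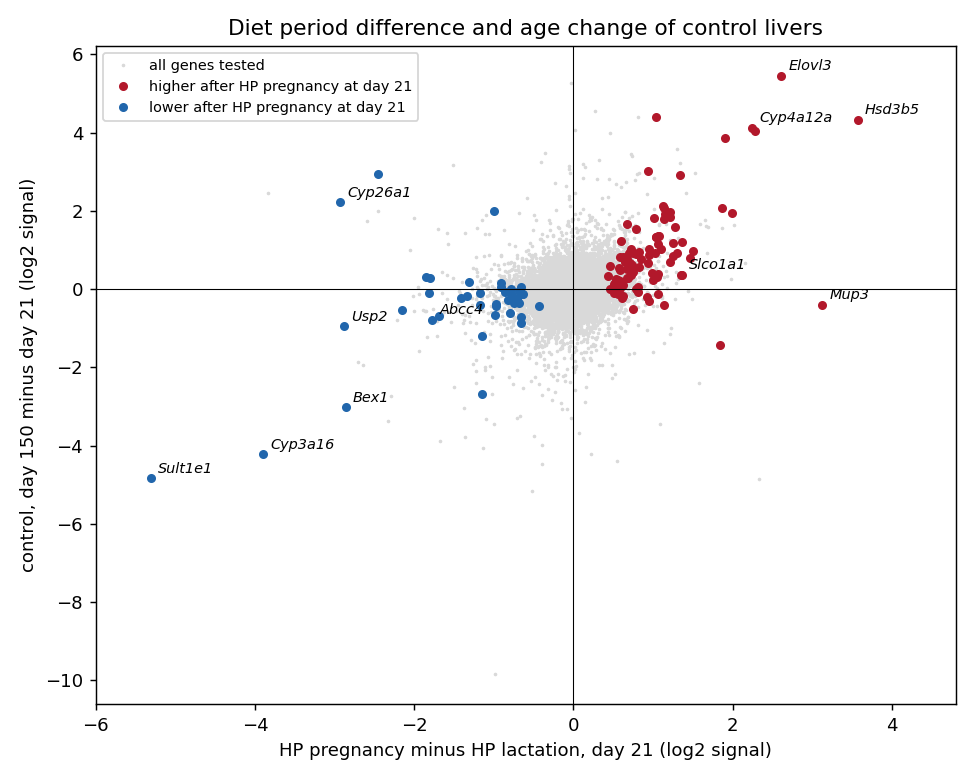
Change with age in control livers (day 150 minus day 21, vertical) against the difference of HP pregnancy minus HP lactation at day 21 (horizontal), both in log2 signal, for 11018 genes. Of the 99 genes higher after HP pregnancy 85 lie above 0, and of the 42 lower ones 10 do.

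Control livers of day 21 lay between the HP groups for most called genes. Their mean was between the HP means for 92 of the 99 higher genes and 38 of the 42 lower genes. It was nearer to HP pregnancy for 72 of all 99 and 36 of all 42. These genes were chosen for a gap between the HP groups, which by itself makes a control mean between them more likely. The share over all genes was not worked out, so these counts are a description only. The median difference of the higher genes was 0.31 for HP pregnancy minus control and -0.56 for HP lactation minus control, and for the lower genes it was -0.27 and 0.70. Both comparisons use the same control arrays, and 1 of them held Xist signal, so these values are given side by side only. Without that array the control mean lay between the HP means for 89 and 39 genes and nearer to HP pregnancy for 74 and 33 of all higher and lower genes, and the medians were 0.28 and -0.61 for the higher and -0.36 and 0.72 for the lower genes.

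At day 150 the same comparison of HP pregnancy with HP lactation called 79 genes (0.717%), 30 higher (0.272%) and 49 lower (0.445%). Without the HP lactation array with Xist signal it called 3. It called 22 without HP pregnancy replicate 1, 3 without replicate 2 and 2 without replicate 3, and 251 without HP lactation replicate 5 and 2 without replicate 6, so it rested on single pools throughout. Of the 141 genes called at day 21, 1 was also called at day 150. It was Fads6, a fatty acid desaturase-like gene, which read 1568, 1901 and 1927 in HP pregnancy livers at day 21, against 3059, 2276 and 3075 in HP lactation livers. Its difference was -0.63 (SE 0.14, limma adjusted p = 0.028) at day 21 and -1.07 (adjusted p = 0.0029 in limma) at day 150. The day 150 values were 1113, 1010.2 and 1203, against 2386, 2253 and 2306. Signs nevertheless leaned the same way, as 83 of the 99 higher genes were positive at day 150 (48.8% of all genes were), and 33 of the 42 lower genes were negative. Their medians were 0.21 and -0.28, beside -0.01 over all genes, and the counts without the array with Xist signal were 83 and 37.

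The change of the difference between days was tested as an interaction. It passed for 2 genes (0.0182%), and 888 had an unadjusted p under 0.05. For Mup3 the HP groups differed by 3.12 at day 21 and by -0.02 at day 150, where HP pregnancy arrays read 17234, 17849 and 16326 and HP lactation arrays 23580.0, 15440.4 and 14423, and the interaction was 3.15 (SE 0.42, limma adjusted p = 0.0049). Cyp2d13, a cytochrome P450, differed by 0.54 at day 21 and -0.29 at day 150, with an interaction of 0.83 (SE 0.14, limma adjusted p = 0.049). Cyp2d13 read 4866, 5498 and 5252 in HP pregnancy and 3627, 3372 and 3729 in HP lactation livers at day 21. Without the HP lactation array of day 150 with Xist signal the adjusted p was 0.025 for Mup3 and 0.088 for Cyp2d13. Hsd3b5, at 3.57 and 0.45, had an interaction with an adjusted p of 0.082 in limma, and for Cyp3a16, at -3.90 and -3.53, it was 0.97. For the remaining called genes a change between the days was therefore not shown.

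**Figure D5:**
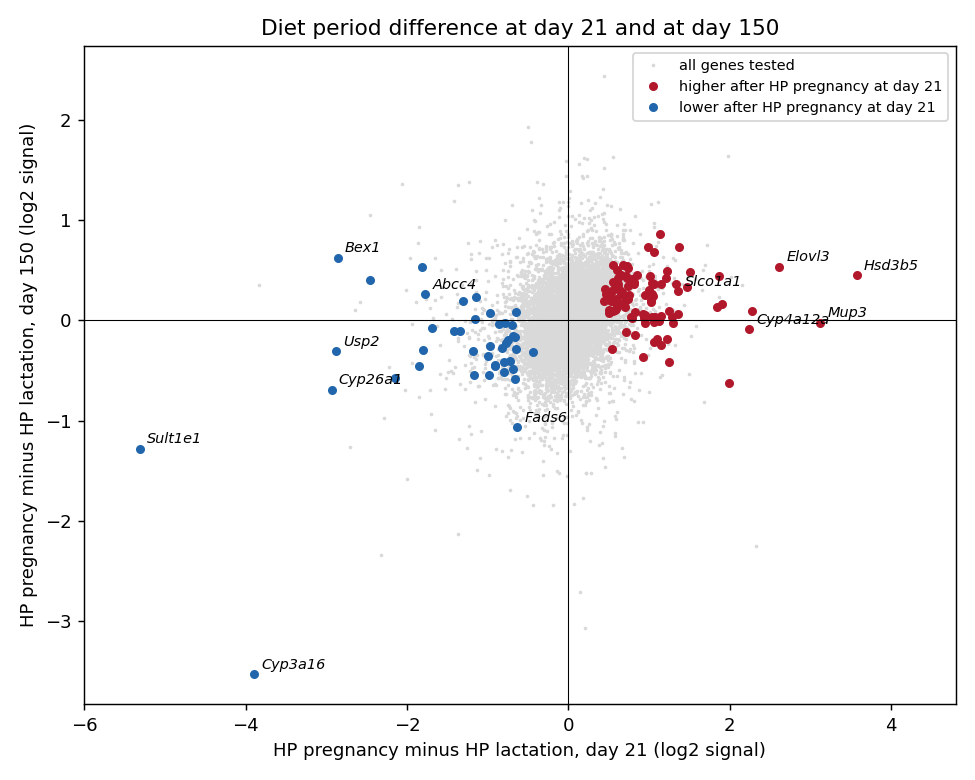
Difference of HP pregnancy minus HP lactation at day 150 (vertical) against the same difference at day 21 (horizontal), both in log2 signal, for 11018 genes. Mup3 lies at 3.12 and -0.02, while Cyp3a16 lies at -3.90 and -3.53.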

How the data were processed

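The 18 arrays, 3 in each of 6 groups, were Affymetrix Mouse Genome 430 2.0 arrays hybridised with liver RNA. The intensity values are those the authors deposited, a linear signal made with MAS5 in GCOS 1.4 per the submitters' processing notes, with a trimmed mean (2% from each end) of 500 on each array. No rescaling was done, and log2 was taken with 0 added. A platform table gave 1 gene symbol to 34945 of the 45101 probe sets, several to 932 and none to 9160, besides 64 control sets; 34741 were matched to RefSeq by gene ID. Probe sets at or above the median mean log2 signal (5.85) were kept, and the brightest per gene was used. Of 100 other kept probe sets of called genes, 12 had the opposite sign.

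Group means were fitted over all 18 arrays in limma 3.58.1 under R 4.3.3 (eBayes with trend, two-sided, Benjamini-Hochberg over all 11018 genes), with 12 residual and 6.47 prior degrees of freedom and a median standard error of 0.189. The number of arrays limits the precision. The code was tested on simulated data.

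Members, gene lists and tests were chosen with earlier results of these data known. The naming rule allowed up to 20 higher and 20 lower genes with the largest differences among separated calls, up to 4 per list with the smallest p, up to 5 each way at day 150 and for the interaction, and a short fixed set; a subset is named. Alternatives were other filters, scalings and spread estimates, an added 50, every probe set, array weights, another threshold, fewer arrays, a replicate block, the Gapdh ratio and single arrays left out. Those for the age change, and the fits without both arrays with Xist signal, were chosen after seeing the data. Figures used matplotlib 3.10.9 under Python 3.11.15. Coordinates are GRCm38.p6.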

Additional observations from a re-analysis of the deposited data

Results flagged for a closer look

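The difference between HP pregnancy and HP lactation changed between day 21 and day 150 for 2 genes, by the interaction tested in limma. For Mup3 the change was 3.15 on the log2 scale (SE 0.42, adjusted p = 0.0049), and it passed in all 12 fits that left out 1 array of the 4 groups. For Cyp2d13 it was 0.83 (SE 0.14, adjusted p = 0.049), and it passed in 3 of those 12. The Mup3 probe set can bind related transcripts. What lies behind either change was not tested.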

How the results depend on the processing

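No gene followed here changed direction under any alternative run. The medians of 22 of the 51 gene lists changed sign under at least 1 alternative, among them fatty acid and triglyceride synthesis (-0.27, and 0.002 without HP lactation replicate 3) and homologous recombination and repair (-0.05, and 1.03 at a stricter filter). The counts at day 21 (141 genes, 99 higher and 42 lower after HP pregnancy) stayed within 1.5 times under other filters, scalings, an added 50, every probe set and without both arrays with Xist signal. They were 54, 41 and 13 without the trend, 360, 219 and 141 with array weights, 318, 209 and 109 at an adjusted p under 0.10, 34, 21 and 13 in the 6 arrays alone, 54, 33 and 21 in the 9 arrays of day 21, and 74, 60 and 14 with the Gapdh ratio. Leaving out 1 array gave 33 to 361, 28 to 216 and 4 to 145. At day 150 the count of 79 was 38 without a filter, 3 without both arrays with Xist signal and 2 to 251 with 1 array left out. For the interaction the count of 2 was 5 after quantile normalization, 1 without a filter, 1 without both arrays with Xist signal and 1 to 11 with 1 array left out. For the age change in control, day 150 vs day 21: genes called, the count of 1959 was 1151 to 1758 with 1 control array left out. Why these counts moved was not tested. Among the followed genes of day 21, 1310 values kept their side of the threshold, 236 lost it and 70 gained it, and 913 list medians moved by less than the spread between arrays while 55 moved more.

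No pairing of samples by replicate number was seen, though so few arrays cannot settle whether there was any. Deviations from the group means of same-numbered HP pregnancy and HP lactation arrays correlated at 0.077, -0.097 and 0.103. Those of differently numbered arrays of the 2 groups correlated at -0.166 to 0.102. With the replicate number as a block 113 genes were called, 81 higher and 32 lower. With 3 pools a group, small differences and genes near background were not resolved.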
